A study of Mus musculus with 2 samples.

Results

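The respiratory chain of the mitochondrion is built from subunits that are mostly encoded in the nucleus, and the genes described here are the mouse protein-coding genes whose symbol begins with Nduf, Uqcr, Atp5 or Sdh, or with Cox4 to Cox8. This rule on symbols found 100 of the 21883 protein-coding genes of the RefSeq table on chromosomes 1 to 19, X and Y. It takes in those nuclear-encoded subunits of complexes I to IV and of the ATP synthase whose symbols match, and not every subunit of each complex. Also included are the assembly factors named Ndufaf and Sdhaf, 8 isoforms that are best known from particular tissues or conditions, and the gene copies Ndufb4b and Ndufb4c. The data are ATAC-seq peaks of mouse CD8+ T cells, from an assay in which a transposase cuts and tags open DNA, and there are 2 libraries with a peak list each. The first library is titled Control and the other Treatment. A further label field gives "Treatment" for the former and "Combined treatment" for the latter, and the labels say neither what was given nor what "Peml-1" in the series title stands for. With 1 library a group there was no replicate check and no test was made, so every statement below compares 2 libraries and not 2 conditions.

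Complexes I and II pass electrons from NADH and succinate to ubiquinone, complex III passes them on to cytochrome c, and complex IV reduces oxygen. Complexes I, III and IV pump protons, and the ATP synthase uses the resulting gradient to make ATP. CD8+ T cells are known to enlarge their mitochondrial capacity after activation and to rely on oxidative phosphorylation as memory cells.

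A peak was counted at a gene when it overlapped the 1 kb on each side of either end of the gene's span, and is called a gene-end peak. The locus of a gene is its span extended by 10 kb both ways, and a peak is shared when it overlaps a peak of the other list by at least 1 bp. Strength is the authors' fold enrichment over local background, which was used to describe and rank peaks within a list. The control list holds 85285 peaks and the treatment list 65098, with median folds of 8.18 and 7.35, and read numbers are not given in the sources used here. All 8 markers of T cells and of the CD8 lineage that were looked up, Cd8a, Cd8b1, Cd3d, Cd3e, Cd3g, Cd247, Lck and Thy1, carried a gene-end peak in both libraries. So did 2 of 3 CD4 T cell markers, 2 of 5 of B cells and 2 of 6 of myeloid cells (2 more in control only). The counts were 1 of 3 for NK cell, 2 of 3 for erythroid and 2 of 4 for stromal markers, against 61.2% of all protein-coding genes. At the 8 CD8 T cell markers the median fold was 9.05 in control and 8.05 in treatment. Over all genes with a peak in both libraries it was 14.8 and 14.4. At the erythroid markers with a peak it was 18.1 and 16.4, and at those of B cells 6.79 and 5.32. The part of other cells in the results below was not tested. The B cell genes Ms4a1 and Pax5 and the NK cell gene Ncr1 carried none in either library.

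The upstream sequences of 5 genes stand for the patterns described below. All are from the RefSeq promoter table of build GRCm38.p6, in which 82 of the 100 genes had a listed transcript start, and run from the 5′ end to the base before the start, which is position −1. Sdhaf4 (chr1:24005641-24005890, minus strand) had the strongest gene-end peak of the set in control, and capitals mark CCGCCC, the reverse complement of the SP/KLF letters GGGCGG, at −67 to −62. Atp5k (chr5:108434400-108434649, minus strand) had the strongest of the ATP synthase genes and holds the NRF1 letters GCGCATGCGC at −50 to −41. Cox7a2 (chr9:79759854-79760103, minus strand) was the gene called in control only by its span although its listed start lay under a strong peak in both libraries, and GGGCGG at −44 to −39 is in capitals. Cox7a1 (chr7:30183921-30184170, plus strand), the muscle isoform, had the peak whose rank by fold fell furthest from control to treatment. Capitals mark ATTGG, the reverse complement of the CCAAT box, at −137 to −133 and −74 to −70. Ndufaf2 (chr13:108158626-108158737, minus strand) shares its peak with the oppositely directed DNA repair gene Ercc8, whose start lies 113 bp away, so the 112 bases between both starts are given. Capitals mark CCAAT boxes of opposite direction at −87 to −83 and −82 to −78, and GGGCGG at −14 to −9.
Sdhaf4: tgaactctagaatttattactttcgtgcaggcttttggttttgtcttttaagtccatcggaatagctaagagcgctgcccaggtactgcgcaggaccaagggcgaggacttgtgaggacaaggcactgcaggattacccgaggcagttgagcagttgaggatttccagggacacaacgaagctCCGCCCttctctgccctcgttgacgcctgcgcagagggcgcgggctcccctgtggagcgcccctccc
Atp5k: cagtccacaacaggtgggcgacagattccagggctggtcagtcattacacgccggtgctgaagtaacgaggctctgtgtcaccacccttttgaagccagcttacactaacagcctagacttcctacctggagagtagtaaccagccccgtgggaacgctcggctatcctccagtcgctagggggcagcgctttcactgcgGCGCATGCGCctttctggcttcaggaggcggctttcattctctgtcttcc
Cox7a2: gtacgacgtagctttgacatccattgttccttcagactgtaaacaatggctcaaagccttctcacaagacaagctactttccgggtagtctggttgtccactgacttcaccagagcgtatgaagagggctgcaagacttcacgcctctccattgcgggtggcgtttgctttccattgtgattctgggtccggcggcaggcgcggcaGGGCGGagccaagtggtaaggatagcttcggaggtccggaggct
Cox7a1: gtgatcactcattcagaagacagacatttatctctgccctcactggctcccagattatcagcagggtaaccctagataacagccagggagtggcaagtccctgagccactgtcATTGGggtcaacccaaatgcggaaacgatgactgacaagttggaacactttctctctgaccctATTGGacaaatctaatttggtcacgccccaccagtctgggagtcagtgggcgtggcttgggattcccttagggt
Ndufaf2: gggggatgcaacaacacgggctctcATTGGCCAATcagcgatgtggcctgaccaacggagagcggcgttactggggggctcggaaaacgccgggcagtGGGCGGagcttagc

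In both libraries 92 of the 100 genes carried a gene-end peak (Wilson 95% interval 85.00% to 95.9%, which covers counting error only), against 61.2% of all protein-coding genes. Control alone had a peak at 1 gene, Cox7a2 (background 4.84%), and treatment alone at 1 gene, Cox8b (background 0.311%). The 6 genes with none in either library, against 33.6% of all genes, included Ndufb4b, Ndufb4c, Cox6a2, Cox7b2 and Cox8c. Leaving out the tissue-restricted isoforms and the gene copies, 88 of 90 genes had a peak in both libraries (97.8%). The 13 citric acid cycle genes looked up for comparison all had a peak in both libraries, as did 35 of 37 electron carriers and assembly factors outside the symbol rule and 15 of 16 genes for mitochondrial DNA and its regulators. The exceptions were Cyct, the testis cytochrome c, and the ATP synthase assembly factor Atpaf2 with none, and Gabpb1, a subunit of the ETS-family factor GABP, with a peak in control only.

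**Figure D1:**
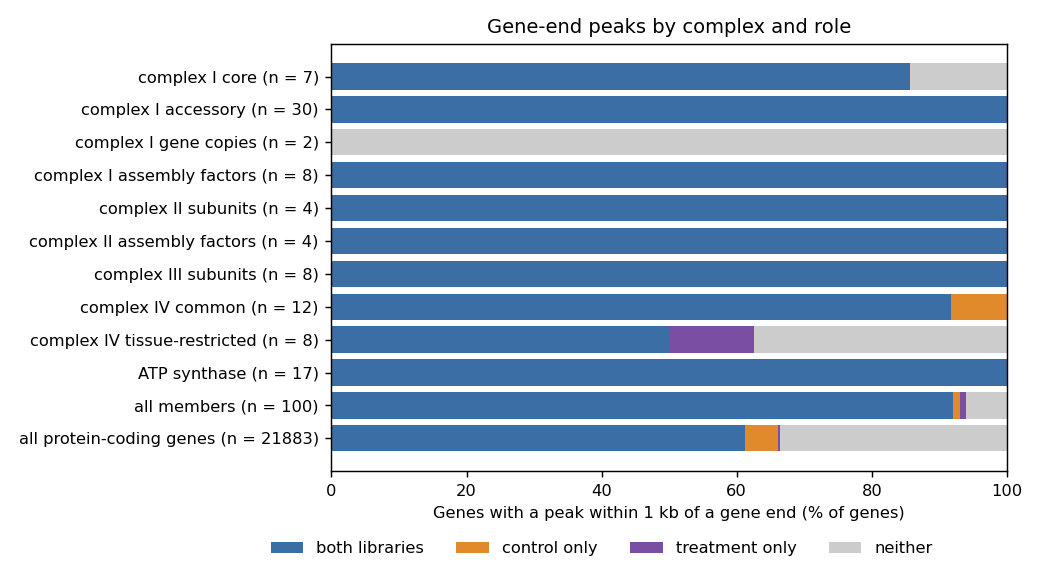
Share of genes with a gene-end peak, as percent of genes, by complex and role (n in each label), in both libraries, in control only, in treatment only and in neither. Most roles are filled by genes with a peak in both. The tissue-restricted isoforms of complex IV have 4 of 8 and the complex I gene copies 0 of 2, against 61.2% of all protein-coding genes.

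Complex I had peaks in both libraries at 6 of 7 core genes, 30 of 30 accessory subunit genes and 8 of 8 assembly factor genes. Among the core genes Ndufv1, which encodes the NADH-binding subunit, had a peak of fold 20.5 in control and 21.7 in treatment. The accessory genes ran from Ndufb2, of fold 22.7 in control and 21.2 in treatment, down to Ndufb10, of 6.46 and 6.93. Among the assembly factors Ndufaf7, a methyltransferase, was at 24.5 and 23.9. Ndufaf3 was lowest, at 7.12 and 8.29. The gene copies Ndufb4b and Ndufb4c had no peak in the whole locus in either library, whereas Ndufb4 itself had a peak of fold 22.6 in control and 23.3 in treatment.

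Complex II, which is also the succinate dehydrogenase of the citric acid cycle, had the highest median fold of the complexes. All 4 subunit genes and all 4 assembly factor genes had a peak in both libraries, with a median fold at the subunit genes of 22.8 in control and 22.0 in treatment. The flavoprotein gene Sdha was at 24.5 in control and 25.4 in treatment, and the membrane anchor gene Sdhc at 24.4 and 23.0. Sdhd, the other anchor, had 21.2 and 20.9, and the iron-sulphur subunit gene Sdhb 15.6 and 16.2. Sdhaf4, whose product aids flavinated Sdha on its way into the complex, was at 25.8 and 23.3. The median over the set was 17.1 in control and 17.8 in treatment, and over all genes with a peak in both libraries 14.8 and 14.4.

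All 8 complex III genes of the set had a peak in both libraries, with median folds of 15.7 in control and 16.6 in treatment. Uqcrb, a small subunit near the ubiquinone site, was strongest at 20.7 and 18.6. Uqcrfs1, which encodes the Rieske iron-sulphur protein, had 20.5 and 22.9, and the hinge protein gene Uqcrh was lowest with 9.19 and 11.1. All 17 ATP synthase genes had a peak in both, with medians of 16.9 and 18.4. They ran from the small membrane subunit gene Atp5k, at 24.4 in control and 23.4 in treatment, to Atp5d, the delta subunit of the catalytic part, at 2.70 and 2.28. The catalytic beta subunit gene Atp5b had 16.7 and 18.9, and the alpha subunit gene Atp5a1 13.2 and 14.8.

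Complex IV split by isoform. Of the 12 common genes 11 had a peak in both libraries, with median folds of 15.9 in control and 17.5 in treatment. Cox7c led them with 24.9 and 24.4, followed by Cox5b with 21.8 and 22.0, and Cox7b was low with 6.69 and 5.82. Of the 8 tissue-restricted isoforms 4 had a peak in both libraries, against 61.2% of all protein-coding genes, with medians of 9.22 and 5.84 at these 4. These were Cox7a1, Cox4i2, Cox6b2, the testis isoform, and Ndufa4l2, a paralogue of Ndufa4 known from hypoxia. The skeletal and heart muscle isoform Cox6a2 had no gene-end peak but 3 shared peaks elsewhere in its locus. The testis genes Cox7b2 and Cox8c had no peak in the locus in either library. Cox8b, the heart and muscle isoform, had a gene-end peak in treatment only, at chr7:140900874-140901187, of fold 2.003 and −log10 q of 3.01, in a list whose lowest −log10 q is 2.002.

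Set beside their common counterparts, the restricted isoforms had the weaker gene-end peak in both libraries in each of 3 pairs in which both genes carried one. Cox4i1 had folds of 15.3 in control and 17.5 in treatment and Cox4i2 10.1 and 4.74. Cox6b1 had 18.7 and 19.2 and Cox6b2 8.34 and 7.27. Ndufa4 had 15.6 and 16.5 and Ndufa4l2 5.20 and 5.28. In the remaining families the common gene carried a peak in both libraries and the restricted one did not, except at Cox7a1 and Cox7a2, whose gene-end calls are described below. Cox6a1 had 15.9 and 17.5 with none at Cox6a2, Cox7b had the values above with none at Cox7b2, and Cox8a had 19.2 and 20.4 with none at Cox8c.

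The gene span decided some of these calls. The RefSeq spans of Cox7a2, Cox5a and Atp5d extend 11569, 3904 and 3577 bp beyond the listed transcript start, so the peak at the start fell outside the gene-end window. Cox7a2, the common counterpart of Cox7a1, had gene-end peaks in control only, the stronger of fold 5.46. Its start lay under a shared peak at chr9:79759397-79760262 in control and chr9:79759432-79760283 in treatment, of fold 20.03 and 22.06. At Cox5a the gene-end peaks were of fold 4.58 in control and 4.14 in treatment, and the shared peak at the start of 10.1 and 11.3. At Atp5d the corresponding values were 2.70 and 2.28 at the gene end and 7.65 and 8.76 at the start. With windows of 1 kb around listed transcript starts, a choice made after seeing the data, 79 of 82 genes had a peak in both libraries (96.3%), against 61.6% of the 17491 genes with a listed start. None had one in control alone, against 3.88%, and Cox8b was again the gene with one in treatment alone.

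The peaks sat on the starts. Of the 82 genes with a listed start, 79 had a control peak at the end where transcription begins and 18 at the other end (22.0%), and 79 and 11 (13.4%) did so in treatment. Over all genes with a listed start these shares were 62.2% and 19.8% in control and 58.4% and 15.2% in treatment. The summit of the strongest control peak near a listed start lay at a median of −28 bp from it, with quartiles of −94.5 and 27.0, and 58 of 79 summits lay within 100 bp. In treatment the median was −35.5 bp and 60 of 80 lay within 100 bp. The peak covered the start at 79 of 79 genes in control and 78 of 80 in treatment.

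**Figure D2:**
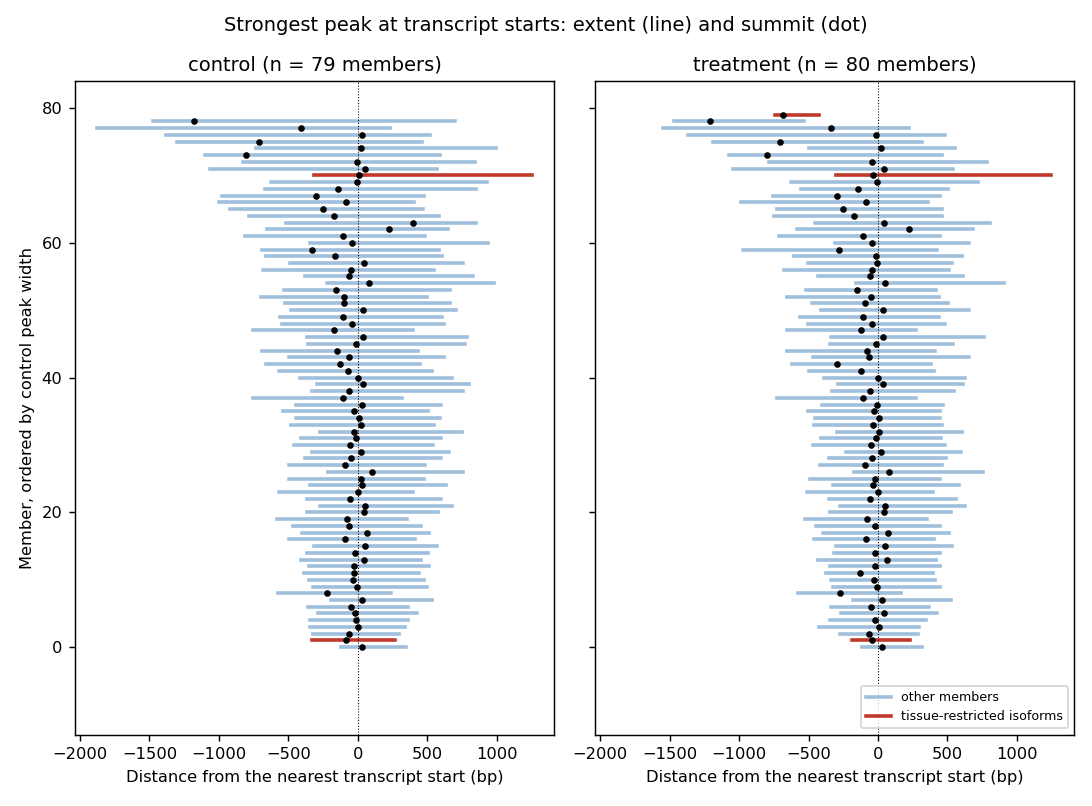
Strongest peak near a listed transcript start, in control (79 genes) and treatment (80 genes), 1 line per gene from the left to the right edge with its summit as a dot, in bp from the nearest start and ordered by control peak width. Red lines are tissue-restricted isoforms, and most summits gather just upstream of the start, with medians of −28 bp in control and −35.5 bp in treatment.

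Many of these starts were next to a second start of opposite direction. A protein-coding gene on the other strand began within 1 kb of 23 of the 82 genes (28.0%, Wilson interval 19.5% to 38.6%), against 8.48% of all genes with a listed start. Among genes with a gene-end peak in both libraries it was 23 of 78 (29.5%) against 13.2%. The partners were 10 bp apart at Ndufa7 and the ribosomal protein gene Rps28, and 52 bp apart at Sdhd and Timm8b, which encodes a mitochondrial import chaperone. Sdha and Ccdc127 were 77 bp apart, and Ndufb5 and the mitochondrial ribosomal protein gene Mrpl47 308 bp. Atp5j, a subunit of the ATP synthase stalk, lay 148 bp from Gabpa, which encodes the DNA-binding subunit of GABP, and both genes had the same control peak of fold 13.5. Such a peak cannot be assigned to either gene. An end of a gene outside the set lay within 1 kb of the summit at 44 of the 112 control gene-end peaks and 45 of the 105 treatment ones. The matching share over the gene-end peaks of all genes was not counted.

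Letters known from promoters of respiratory genes were counted in the 300-base windows from 250 bases before to 50 after each listed start, on both strands. The set had 87 windows for 82 genes, and all genes had 21262. No string searched is contained in another, and a match describes letters, not a bound site. NRF1 letters (GCGCATGCGC) were in 7 windows (8.05%), against 1.33% of all windows and 1.93% of the 13338 windows of genes peaked at an end in both libraries. They were at Atp5g2, Atp5k, Cox6a1, Ndufa11, Ndufaf4, Ndufaf5 and Uqcrc1. YY1 letters (AAGATGGCGGC) were in 5 windows (5.75%), against 0.889% and 1.32%, at Ndufa9, Ndufaf8, Ndufs4, Ndufs6 and Ndufs7. ETS letters (CCGGAAG), which GABP also reads, were in 22 windows (25.3%), against 11.6% and 16.4%. ERR letters (TCAAGGTCA) were in 2 windows, at Atp5g3 and Sdhd (2.299% against 0.334% and 0.315%). CRE letters (TGACGTCA) were in 4 windows (4.60% against 2.23% and 3.01%). GGGCGG was in 46.0% against 46.2% and 61.2%, CCAAT in 41.4% against 38.2% and 37.6%, and TATAAA in 11.5% against 12.6% and 7.32%. AP-1 letters (TGAGTCA) were in 6.90% against 4.66% and 3.66%. RUNX letters (TGTGGTTT) were in 0 of 87 windows, against 1.61% and 1.20%. The median ratio of observed to expected CpG was 0.829 in the set, 0.567 in all windows and 0.740 in windows of genes with a peak in both. It was 0.382 in the 4 listed windows of tissue-restricted isoforms.

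Each list was ranked by fold over the same 13399 genes, those that carried gene-end peaks in both, and the strongest peaks of the 92 genes stood above the middle. The median percentile was 66.4 in control (quartiles 46.7 and 86.8) and 72.5 in treatment (54.1 and 90.9). Above a percentile of 75 were 37 genes in control and 44 in treatment, and at or below 25 were 13 and 10. The percentile was higher in treatment at 71 of 92 genes (77.2%), against 60.1% of all genes with a peak in both libraries. This compares places within 2 lists that differ in length and is no measure of a change in accessibility.

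By role, the percentile was higher in treatment at 16 of 17 ATP synthase genes, 11 of 11 common complex IV genes and 7 of 8 complex III genes. It was higher at 4 of 6 core genes, 20 of 30 accessory genes and 7 of 8 assembly factor genes of complex I. The complex II assembly factors had 1 of 4, the tissue-restricted isoforms 2 of 4 and the complex II subunits 3 of 4. Over all genes with a peak in both libraries the share was 60.1%, and several of these roles hold few genes. Among the complex II assembly factors, Sdhaf4 stood at 99.5 in control and 98.3 in treatment and Sdhaf3 at 96.7 and 95.7. Sdhaf1 stood at 51.3 and 49.7, and Sdhaf2 went up, from 45.7 to 54.3. Atp5o, a stalk subunit of the ATP synthase, stood at a percentile of 44.3 in control and 72.9 in treatment, with folds of 13.9 and 17.9. Ndufa7 stood at 64.8 and 90.9, with folds of 16.9 and 20.8. In the other direction Cox7a1 stood at 51.1 in control and 13.7 in treatment. Its peak, chr7:30183844-30184440 in control and chr7:30183982-30184399 in treatment, had folds of 14.9 and 6.40 and −log10 q of 479 and 73.6. Of all 13399 genes, 2.38% moved as far down or further, and Cox7a1 was the only such gene of the 92. Cox4i2, the isoform known from lung and hypoxia, stood at 21.9 and 8.18 with folds of 10.1 and 4.74, and 12.2% of all genes moved as far down. The complex I assembly factor gene Ndufaf1 stood at 82.96 and 68.61.

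**Figure D3:**
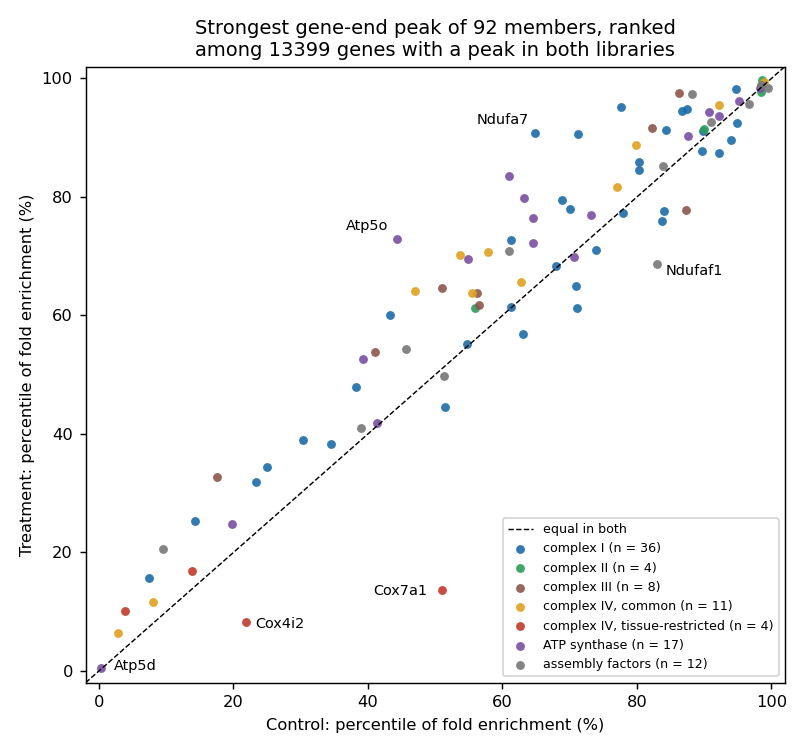
Percentile of fold enrichment of the strongest gene-end peak in control (horizontal axis, %) and treatment (vertical axis, %), 1 point per gene, coloured by complex, among 13399 genes with a peak in both libraries. Most of the 92 points lie above the dashed line of equal percentile, and Cox7a1, at 51.1 and 13.7, lies furthest below it.

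The median width of the strongest gene-end peak was 1097 bp in control and 941.5 bp in treatment, against 1100 and 982 bp over all genes with a peak in both libraries. The treatment peak was narrower at 87 of 92 genes (94.6%), against 87.9% of all such genes, and the median ratio of treatment to control width was 0.908, against 0.925. The strongest peaks of the libraries overlapped at 91 of the 92 genes and at 12966 of all 13399. At Ndufb7 they lay apart, at chr8:83572621-83573775 in control and chr8:83566463-83567365 in treatment, so its width and percentile compare different peaks. The widest control peaks were those of Ndufa13, at 2172 bp, and Uqcrh, at 2113 bp. At Ndufa13, a complex I subunit also known as Grim19, the treatment list held 2 separate peaks of 943 and 896 bp that overlapped the control peak, which gave the lowest ratio of the set, 0.434. Uqcrh measured 1772 bp in treatment, Atp5j 1900 and 1853 bp, and Uqcr11 1723 bp in control and 1052 bp in treatment. The narrowest peaks were at Cox5a, with 223 and 229 bp, Cox7b, with 468 and 438 bp, and Cox7a1, with 597 and 418 bp. The 5 genes with a wider peak in treatment included Uqcrb, with 815 and 998 bp, and Ndufa4, with 1275 and 1401 bp.

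**Figure D4:**
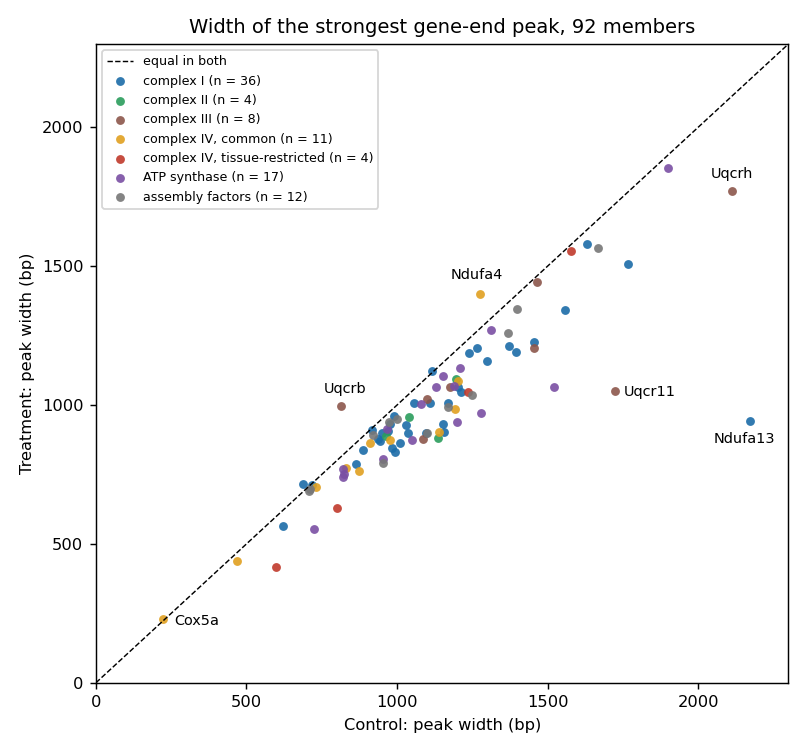
Width in bp of the strongest gene-end peak in control (horizontal axis) and treatment (vertical axis) for 92 genes, coloured by complex. Points below the dashed line of equal width are genes with a narrower peak in treatment, 87 of 92, and Ndufa13, with 2172 and 943 bp, lies furthest below.

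Summits mostly lay close together. Where the strongest peaks of the libraries overlapped, the summit was the same base at 39 of 91 genes (42.9%), against 38.0% of all such genes, and within 10 bp at 60 (65.9%), against 58.9%. The summits lay furthest apart at Ndufaf3, by 357 bp, Atp5a1, by 176 bp, and Ndufs7, by 171 bp.

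Nearly all gene-end peaks were shared, and the exceptions were weak. Of 112 control gene-end peaks 104 were shared (92.9%, Wilson interval 86.5% to 96.3%), against 86.6% for all genes, and of 105 treatment peaks 104 (99.0%, 94.8% to 99.8%), against 98.4%. The 8 unshared control peaks lay at Atp5o, Ndufv3, Ndufa11, Ndufaf6, Sdhb, Ndufaf3 and, with 2 peaks, Cox7a2. Their folds ran from 1.53 to 6.76 with a median of 2.74, against a median of 16.5 for the shared ones. Apart from Cox7a2, these genes also had a shared gene-end peak. By quartile of fold in the whole control list, 5 of 10 peaks of the lowest quartile were shared, 8 of 11 of the next, 18 of 18 and 73 of 73 of the highest. The same quartiles gave 42.9%, 80.5%, 96.8% and 99.8% over all genes. The highest quartile held 65.2% of the control gene-end peaks of the set and 41.6% of those of all genes, so the share of shared peaks has to be read beside strength.

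In the loci away from the gene ends fewer peaks were shared. There 147 of 195 control peaks (75.4%, Wilson interval 68.9% to 80.9%) and 151 of 160 treatment peaks (94.4%) were shared, against 67.7% and 91.9% over all genes. In all, the loci held 307 control and 265 treatment peaks, a ratio of 0.863, against 64949 and 50433 peaks, a ratio of 0.777, for the loci of all genes. The control list is longer, and it was also reduced to the length of the treatment list by keeping its peaks of highest −log10 p. The loci then held 266 and 265 peaks, a ratio of 0.996, against 1.01 for all genes. The spans of the set are short, with a median of 7336.5 bp against 17170 bp.

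Treatment had fewer peaks than control at 31 of 100 loci, against 44.7% of all genes. It had as many at 63, against 49.6%, and more at 6, against 5.65%. Genes with no locus peak in either library count as equal here, 4 of the 100 and 4419 of all 21883. Equal counts with peaks present were found at 59 of the set and at 6445 of all genes. The shares over all genes are therefore lowered or raised by more genes without peaks than those of the set. The greatest deficit was at Ndufaf2, a complex I assembly factor gene with a span of 106064 bp, which had 11 peaks in control and 5 in treatment. Its shared start peak had folds of 20.9 and 22.8, and the 6 peaks found in control alone had folds between 2.79 and 7.06. A shared peak inside the gene at chr13:108071861-108072653 in control had a fold of 18.8, and its partner in treatment 6.85. Ndufa8 had 4 peaks in control and, in treatment, only the 1 at its start, with folds there of 17.5 and 18.9. Cox7a2 had 5 and 2 peaks and Atp5c1 4 and 2. With the control list reduced to the length of the treatment list, the difference, treatment minus control, was 0 at Ndufa8 and Atp5c1, −1 at Cox7a2 and −4 at Ndufaf2. In the other direction Ndufa4l2 had 4 peaks in control and 6 in treatment, where 3 treatment peaks overlapped 1 control peak of 2245 bp. Sdhaf2, which attaches the flavin to Sdha, had 3 and 5, with unshared treatment peaks of fold 2.37 and 3.18. Ndufb1 had 3 and 4 peaks, Ndufb7 2 and 3, and Ndufb8 3 and 4.

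**Figure D5:**
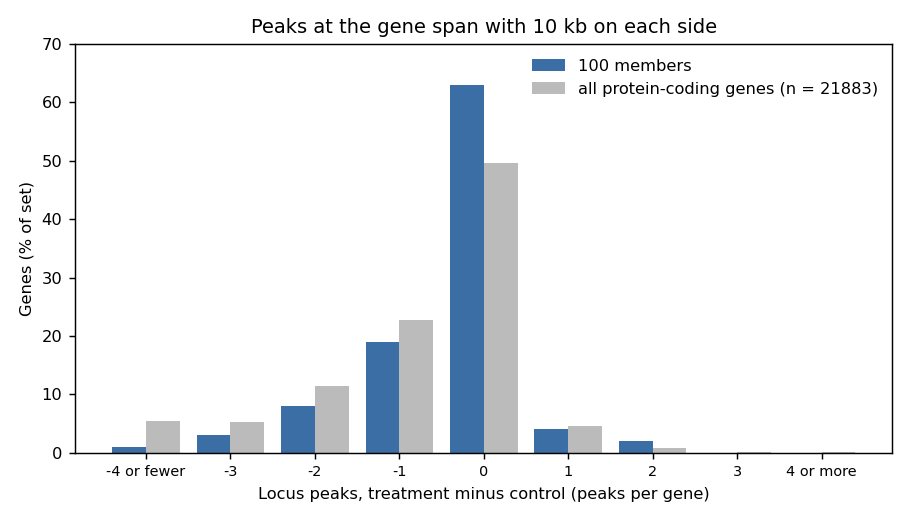
Share of genes (%) by the number of peaks in the locus in treatment minus control, for the 100 genes and for 21883 protein-coding genes. The set has 63 of 100 genes at no difference, against 49.6% of all genes, and fewer genes at each deficit. No difference includes genes without a locus peak in either library, 4 of the 100 and 4419 of all genes.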

How the data were processed

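Per the submitters' processing notes, reads were handled with cutadapt 2.5, Bowtie2 2.3, Picard 2.20 and MACS2 on build mm10. Their settings and filters, the read depth and whether reads were shifted are not given in the sources used here. Each library has a list of its own, not pooled: the authors deposited 1 narrowPeak list per library with a score, a fold enrichment as a ratio, and −log10 p and −log10 q for each peak. The deposited score equals 10 times the −log10 q without its decimals, with 1 peak as the exception.

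Peaks on chromosomes 1 to 19, X and Y (85137 in control, 64910 in treatment) were joined to RefSeq gene spans of GRCm38.p6, the assembly of mm10, with Python 3.11.15, pandas 2.3.3 and NumPy 2.4.6. Gene ends (1 kb on each side), loci (10 kb flanks) and sharing (1 bp) are defined above. Promoter letters were textbook strings, and the NRF1 and YY1 strings were read as stretches of the Atp5g2 and Ndufa9 windows that hold them. Wilson intervals (95%) were used for shares. Genes named were those with a gene-end peak in 1 library or in none, the extremes of fold and width, the leader of each role and the 5 loci each with the largest deficit and excess of peaks, ties by symbol. Some genes that meet this rule are not reported here. Genes named for rank, start position, summit or promoter letters were chosen after their values were seen. The members and lists were chosen with earlier results of these data known. The counting was tested on simulated peaks and recovered 100% of the states. Windows, flanks, overlap, q threshold and list length were varied.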

Additional observations from a re-analysis of the deposited data

How the results depend on the processing

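Across the alternatives run, the number of genes with a gene-end peak in both libraries lay between 78 and 94. The 78 were of the 82 genes with a listed strand, using the 5′ end of the span alone. The ratio of treatment to control locus peaks lay between 0.768 and 0.996, and the median width ratio between 0.907 and 0.913. The count with a peak in control only was 0 with a window of 500 bp and 0 with windows around transcript starts, which were chosen after seeing the data. The share of control gene-end peaks that were shared was 97.0% and 98.8% in these settings. The share of treatment gene-end peaks that were shared was 100% at a −log10 q of at least 5 and of at least 10. With flanks of 50 kb, the difference in locus peaks, treatment minus control, turned to −1 at Ndufa4l2 and −2 at Ndufb8. Of the other values recomputed at the 5 loci picked for a deficit and the 5 for an excess, 21 were unchanged and 27 differed without turning to the opposite sign. Some of these 27 were 0, so that the difference was gone. This was so at Ndufb7 with flanks of 0 kb and 50 kb and at both q thresholds. It was also so at Ndufb8 with flanks of 0 kb and a −log10 q of at least 10, and at Ndufa8 and Atp5c1 with the reduced control list. No paired analysis was possible because each group has 1 library and the labels carry no replicate numbers. Without read counts, a missing peak cannot be told apart from a peak below the threshold of the caller.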
